A study of Homo sapiens with 15 samples.

Results

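The aminoacyl-tRNA synthetases, the enzymes that attach amino acids to their tRNAs, were followed in A2058 cells, an established human melanoma line. The genes were chosen by name as the cytosolic enzymes, whose symbols end in 1 or A or B, and the mitochondrial enzymes, whose symbols end in 2, and not by any measured value. The list holds 35 genes, 19 cytosolic and 16 mitochondrial, and 34 of them are among the 26827 features tested on the arrays. FARSB, the beta subunit of the phenylalanine enzyme, had no probe that could be matched to it, so that 18 cytosolic enzymes remained. Every measured enzyme was above background on all 15 arrays, so none entered the test through 1 group alone.

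RNA was taken after 8 h from cells given NP at 3 µM in DMSO, metformin (MET) at 5 mM or phenformin (PHEN) at 50 µM, each in water, or the vehicles DMSO or water (W) alone. Each of the 5 groups holds 3 arrays, from independent experiments numbered 1 to 3, and all cells were grown in EMEM with serum. The sample labels call the first compound NP and the series title names neopetasin, while the methods of the study describe petasin at the same dose and time, so the name NP is kept here. Metformin and phenformin are biguanides, which inhibit complex I of the respiratory chain. Each compound was compared with its own vehicle. The doses differ, so values for different compounds stand side by side and do not rank the compounds.

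Each synthetase recognises 1 amino acid and its tRNAs, uses ATP to activate the amino acid, and hands the charged tRNA to the ribosome. The cytosol and the mitochondrion have separate sets of enzymes, both encoded in the nucleus, with GARS1 and KARS1 as genes whose transcripts serve both compartments. Several cytosolic enzymes are held in a large multi-synthetase complex and others are free. When amino acids run short or the mitochondria or the endoplasmic reticulum are stressed, the kinases of the integrated stress response raise translation of ATF4, a transcription factor known to act on genes of amino acid synthesis, uptake and tRNA charging.

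The extraction software called between 25805 and 45047 probes per array well above background, with the DMSO and NP arrays (25805 to 32058) mostly below those of W, MET and PHEN (31409 to 45047). DMSO and NP were hybridised on a pair of slides of their own, so each compound shared its slides with its own vehicle. The software marked 1 of the 15 arrays, NP array 2, for evaluation because its detection limit was out of range. Of the 7 melanocyte genes checked, SOX10, MITF, PMEL, MLANA, DCT and S100B were above background on all 15 arrays and TYR on 13. Of the 7 genes of epithelium, leukocytes and fibroblasts, EPCAM and KRT5 were above background on 0 of 15 arrays, CD3E on 11, DCN on 12, and PTPRC, COL1A1 and LUM on 15. In RNA from whole cultures, fewer cells of a kind and less RNA per cell cannot be told apart.

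The cytosolic enzymes were mostly higher under all 3 compounds. The mitochondrial enzymes stayed nearer the level of their vehicle, though 12 of 16 were above 0 under PHEN. The median log2 fold change of the 18 cytosolic enzymes was 0.26 under NP, 0.15 under MET and 0.18 under PHEN. The median of the 16 mitochondrial enzymes was -0.02, 0.03 and 0.08 in the same order, and the median of all 26827 features was -0.01, 0.00 and -0.03. Of the 18 cytosolic enzymes, 15 had a fold change above 0 under NP, 16 under MET and 16 under PHEN, against 46.2%, 51.0% and 40.5% of all features. Of the 16 mitochondrial enzymes, 6, 9 and 12 did.

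No enzyme of either set passed the criteria for a differentially expressed gene (DEG), which asked for a 1.5-fold change or more in either direction and a Benjamini-Hochberg adjusted p of at most 0.05 in limma's test over all features. The test made few calls altogether, since 0.0373% of features were DEGs in NP vs DMSO, 0% in MET vs W and 0.0261% in PHEN vs W. At an unadjusted p of at most 0.05, the cytosolic enzymes with a higher signal numbered 8 of 18 under NP, where 2.81% of all features met the same limit. They numbered 6 of 18 under MET, against 1.38% of features, and 6 of 18 under PHEN, against 0.816%. AARS1, CARS1, GARS1, SARS1 and YARS1 were among them under every compound, EPRS1 under NP and PHEN, WARS1 under NP and MET, and TARS1 under NP. None of the 16 mitochondrial enzymes met it in a comparison in this fit, which has 1 block for the replicate number over all slides, and no enzyme of either set met it with a lower signal, against 1.88%, 1.07% and 1.54% of features. Arrays of the same number deviated together within each set of slides but not between the sets. For DMSO and NP, number and slide could hardly be told apart. With the block within each set, the cytosolic enzymes numbered 10 under NP, 7 under MET and 9 under PHEN. The shares of all features were 5.7%, 4.72% and 2.99%. In that fit 1 mitochondrial enzyme met the limit under MET (MARS2) and 2 under PHEN (HARS2 and MARS2). These counts depend on the arrays used. In the fit with 1 block, without the arrays numbered 2 they were 1 under NP, 1 under MET and 4 under PHEN, against 1.92%, 0.507% and 0.358% of features. Without those numbered 1 they were 3, 3 and 4, against 2.46%, 1.01% and 0.637%. Without the arrays numbered 3, they were 7, 3 and 6, against 3.2%, 2.33% and 1.12%. Without NP array 2 alone, the array marked by the software, the count under NP was 2, against 2.62% of features, and 7 with the block within each set of slides, against 6.06%, with the cytosolic median at 0.23 and 0.20. All measured enzymes were above background on all 15 arrays, while the shares above are over all tested features. Of features above background on all 15 arrays, fitted alone, 2.43%, 1.88% and 1.16% were higher at that unadjusted p under NP, MET and PHEN.

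Direction was also read within the 3 experiments, as the difference between a treated array and the vehicle array of the same number. In NP vs DMSO, 12 of 18 cytosolic and 2 of 16 mitochondrial enzymes were higher in all 3 pairs, against 14.3% of features, and 3 cytosolic and 4 mitochondrial enzymes were lower in all 3, against 18.8%. In MET vs W, 15 cytosolic and 4 mitochondrial enzymes were higher in all 3 pairs, against 22.2% of features, and 2 and 2 were lower, against 20.2%. In PHEN vs W, 13 cytosolic and 6 mitochondrial enzymes were higher in all 3 pairs, against 12.2% of features, and none of the 34 was lower, against 14.8%. The lower counts of the cytosolic set came from FARSA, HARS1 and RARS1 under NP and from LARS1 and RARS1 under MET.

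**Figure D1:**
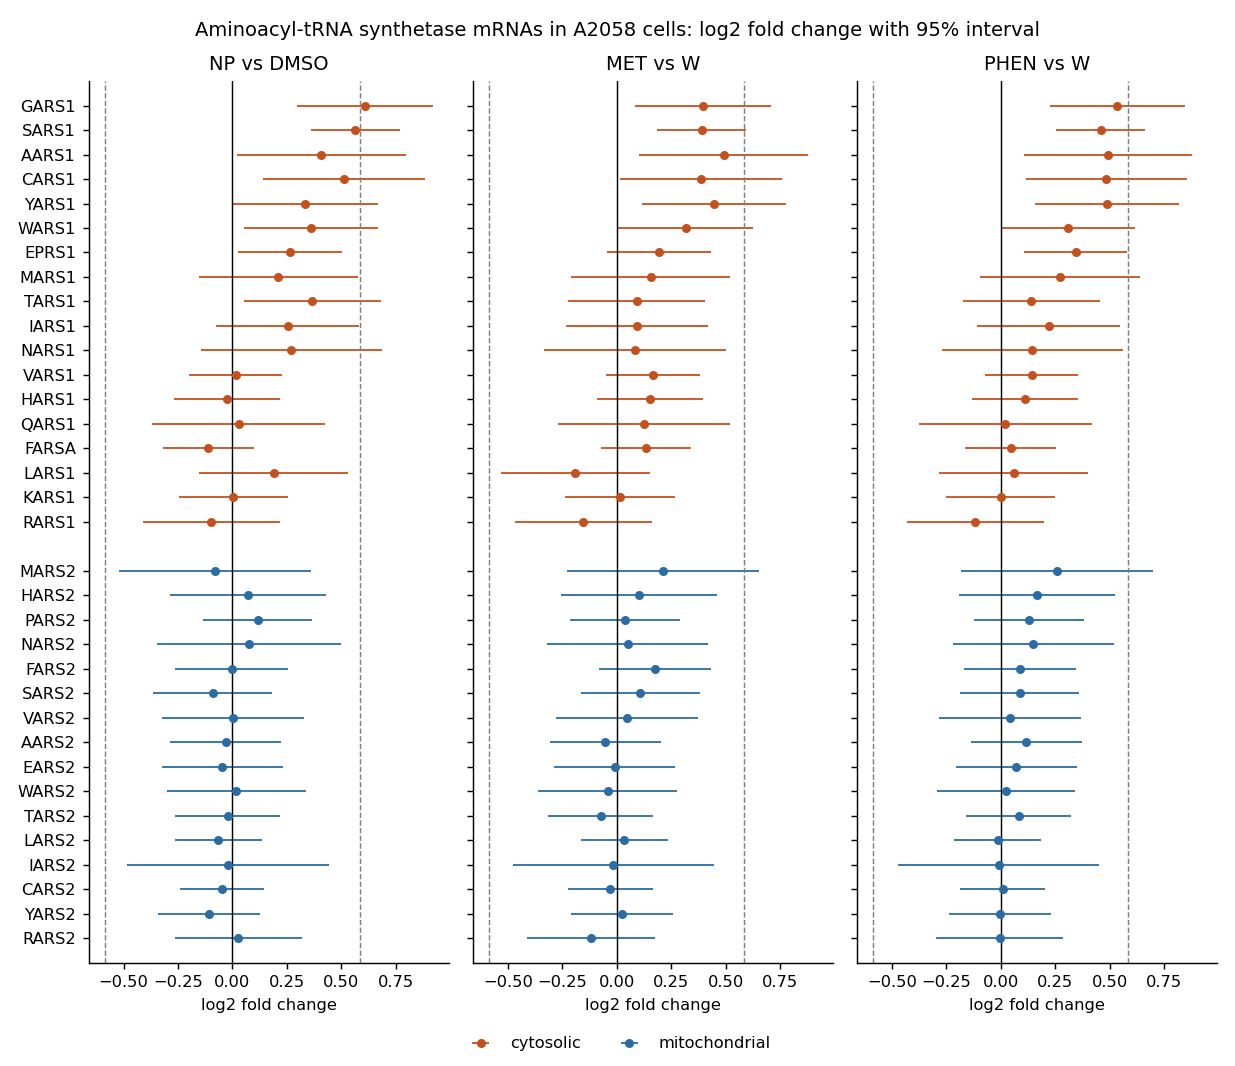
Log2 fold change (horizontal axis) of the 34 measured synthetase mRNAs (rows, cytosolic above and mitochondrial below, each ordered by the mean over the 3 comparisons) in NP vs DMSO, MET vs W and PHEN vs W, with 95% intervals from the fit over 15 arrays. Dashed lines mark a 1.5-fold change in either direction. GARS1, SARS1, AARS1, CARS1 and YARS1 lie right of 0 with their whole interval in all 3 panels, and every mitochondrial interval spans 0.

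GARS1, the glycine enzyme, had the largest mean change of the 34. Its level, in log2 signal relative to the 75th percentile of each array, was 3.92, 3.73 and 3.57 on the 3 DMSO arrays and 4.38, 4.58 and 4.10 on the NP arrays, and 3.15, 3.35 and 3.23 with water, 3.49, 3.64 and 3.78 with MET and 3.76, 3.75 and 3.82 with PHEN. Every treated array stood above every array of its vehicle. The log2 fold change was 0.61 ± 0.14 under NP, 0.39 ± 0.14 under MET and 0.53 ± 0.14 (SE, n = 3) under PHEN, a fold of 1.52, 1.31 and 1.45, with limma's adjusted p at 0.372 for NP and 1.00 for both biguanides.

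SARS1, the serine enzyme, had the smallest unadjusted p of the list in each comparison. It read 5.54, 5.47 and 5.89 in DMSO and 6.06, 6.18 and 6.36 in NP, and 5.16, 5.31 and 5.39 in water, 5.53, 5.68 and 5.83 in MET and 5.69, 5.72 and 5.83 in PHEN. The treated and vehicle arrays did not overlap under any compound. Its log2 fold change was 0.56 ± 0.09, 0.39 ± 0.09 and 0.46 ± 0.09 (SE, n = 3) for NP, MET and PHEN, with unadjusted p of 0.000107, 0.00161 and 0.00052. The adjusted p was 0.102 in NP vs DMSO. It was 0.0301 with the replicate number as a block within each set of slides, and with normexp background correction SARS1 was the only enzyme of the list to pass the DEG criteria, at 0.62 with an adjusted p of 0.0197. Over the 18 alternative settings tried, its adjusted p ranged from 0.0197 to 1.00. A second SARS1 probe, whose accession is that of a non-coding transcript of the gene, was higher by 0.91, 0.61 and 0.83.

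The enzymes for cysteine and alanine showed changes of much the same size. CARS1, the cysteine enzyme, read 1.81, 1.48 and 1.49 in DMSO and 2.14, 2.32 and 1.85 in NP, against 1.26, 1.36 and 1.34 in water, 1.47, 1.74 and 1.90 in MET and 1.73, 1.68 and 2.01 in PHEN. Every treated array was above its vehicle arrays, and the log2 fold change was 0.51 ± 0.17, 0.39 ± 0.17 and 0.48 ± 0.17 (SE, n = 3). AARS1, the alanine enzyme, read 1.66, 1.44 and 1.99 in DMSO and 1.92, 2.07 and 2.32 in NP, against 2.25, 1.95 and 1.71 in water, 2.66, 2.32 and 2.40 in MET and 2.55, 2.42 and 2.41 in PHEN. The NP arrays overlapped with DMSO array 3, the highest of its group, while the biguanide arrays lay above all water arrays, and the log2 fold change was 0.41 ± 0.17, 0.49 ± 0.17 and 0.49 ± 0.17 (SE, n = 3).

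YARS1, the tyrosine enzyme, read 1.62, 1.71 and 2.14 in DMSO and 2.11, 2.14 and 2.22 in NP, against 2.12, 2.07 and 1.84 in water, 2.36, 2.58 and 2.42 in MET and 2.57, 2.56 and 2.35 in PHEN. It was higher by 0.34 ± 0.15 under NP, where the 3 pairs differed by 0.50, 0.43 and 0.08, and by 0.45 ± 0.15 and 0.49 ± 0.15 (SE, n = 3) under MET and PHEN, where the arrays did not overlap with water. WARS1, the tryptophan enzyme, which interferon is known to induce, read 4.99, 4.98 and 5.53 in DMSO and 5.27, 5.49 and 5.82 in NP, against 4.94, 4.93 and 4.88 in water, 5.10, 5.29 and 5.31 in MET and 5.23, 5.18 and 5.27 in PHEN. The third DMSO array again stood above the lowest NP arrays, and the biguanide arrays all lay above water. WARS1 was higher by 0.36 ± 0.14, 0.32 ± 0.14 and 0.31 ± 0.14 (SE, n = 3), and its unadjusted p under PHEN was 0.0508.

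**Figure D2:**
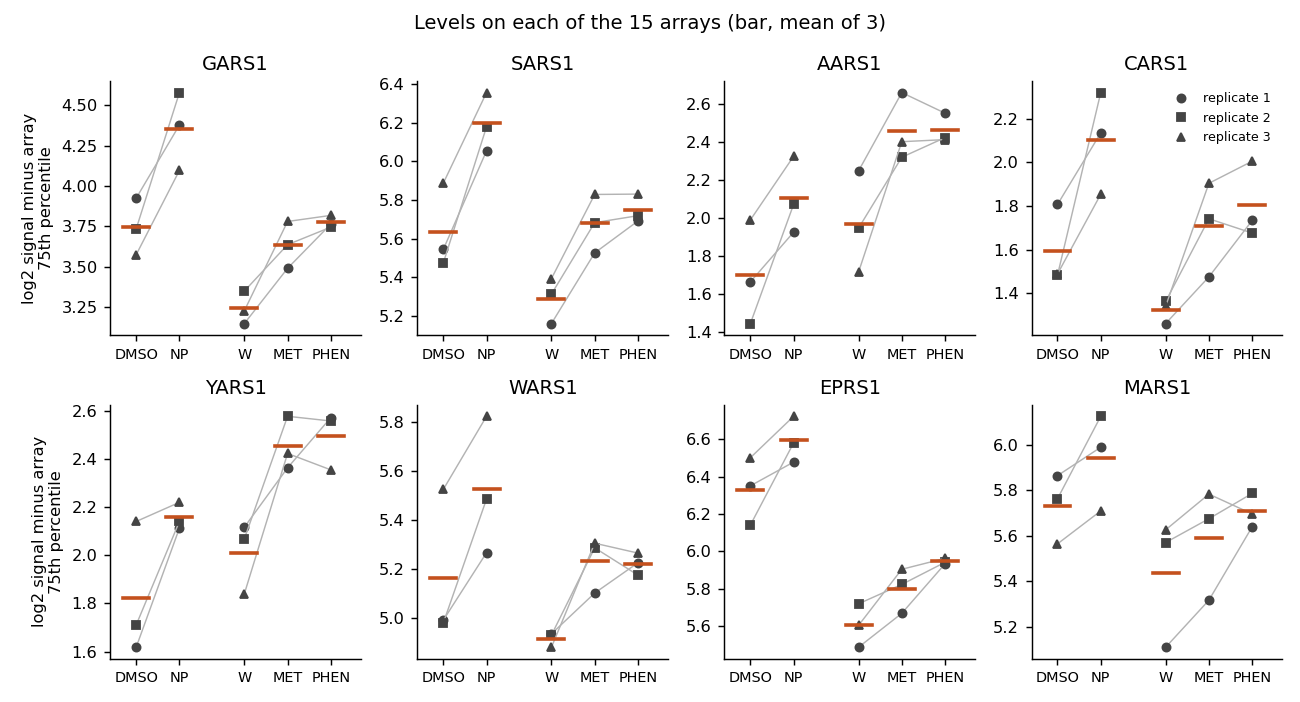
Level of the 8 synthetase mRNAs with the largest mean absolute log2 fold change on each of the 15 arrays, as log2 signal minus the 75th percentile of the array (vertical axis, a scale of its own in each panel). Markers give the replicate number, grey lines join arrays of the same number, and bars are means of 3. For GARS1, SARS1 and CARS1 every treated array lies above every array of its vehicle.

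EPRS1, which charges both glutamate and proline, and MARS1, the methionine enzyme, had the largest mean changes within the multi-synthetase complex. EPRS1 read 6.35, 6.14 and 6.50 in DMSO and 6.48, 6.58 and 6.72 in NP, against 5.49, 5.72 and 5.60 in water, 5.67, 5.82 and 5.90 in MET and 5.93, 5.94 and 5.96 in PHEN. Only the PHEN arrays were clear of their vehicle, and the log2 fold change was 0.26 ± 0.11, 0.20 ± 0.11 and 0.34 ± 0.11 (SE, n = 3). MARS1 read 5.86, 5.76 and 5.56 in DMSO and 5.99, 6.12 and 5.71 in NP, against 5.11, 5.57 and 5.63 in water, 5.32, 5.67 and 5.78 in MET and 5.64, 5.79 and 5.70 in PHEN. The groups overlapped under NP and MET, and its log2 fold change was 0.21 ± 0.16, 0.16 ± 0.16 and 0.27 ± 0.16 (SE, n = 3), with no unadjusted p at or below 0.05. A second MARS1 probe gave 0.05, 0.33 and 0.22, so the NP value rests on the probe chosen.

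No other enzyme of the complex had an unadjusted p at or below 0.05. IARS1, for isoleucine, was higher by 0.25, 0.09 and 0.22 in NP, MET and PHEN, and its other probes gave 0.37, 0.26 and 0.42 and 0.17, 0.03 and 0.28. LARS1, for leucine, which also senses leucine for mTORC1, differed by 0.19, -0.19 and 0.06. QARS1, for glutamine, differed by 0.03, 0.13 and 0.02, KARS1, for lysine, by 0.00, 0.02 and 0.00, and RARS1, for arginine, by -0.10, -0.15 and -0.12. Over the 7 enzymes of the complex, the median was 0.19, 0.09 and 0.06, and over the 11 outside it 0.36, 0.32 and 0.31. At an unadjusted p of at most 0.05, 1, 0 and 1 of the 7 and 7, 6 and 5 of the 11 were higher. All 11 enzymes outside the complex had a fold change above 0 under MET and under PHEN, and 9 did under NP.

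Among the enzymes outside the complex, the size of the change was uneven. TARS1, for threonine, was higher by 0.37 ± 0.14 (SE, n = 3) under NP with all 3 pairs in that direction, and by 0.09 and 0.14 under MET and PHEN. NARS1, for asparagine, was higher by 0.27, 0.08 and 0.14. VARS1, for valine, differed by 0.01, 0.17 and 0.14, HARS1, for histidine, by -0.03, 0.15 and 0.11, and FARSA, the alpha subunit of the phenylalanine enzyme, by -0.11, 0.13 and 0.05. No unadjusted p of NARS1, VARS1, HARS1 or FARSA reached 0.05. The 95% interval of FARSA under NP ran from -0.32 to 0.10.

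GARS1 has no counterpart in the mitochondrial set. Among the mitochondrial enzymes that charge the same amino acids as the other 7 described above, none had an unadjusted p at or below 0.05. SARS2 read 2.83, 2.68 and 2.69 in DMSO and 2.76, 2.66 and 2.51 in NP, against 2.85, 2.88 and 2.91 in water, 2.84, 2.96 and 3.17 in MET and 2.83, 2.92 and 3.15 in PHEN, differences of -0.09, 0.11 and 0.09. AARS2 read 2.91, 2.77 and 2.81 in DMSO and 2.73, 2.80 and 2.88 in NP, against 2.64, 2.88 and 3.00 in water, 2.67, 2.66 and 3.03 in MET and 2.96, 2.98 and 2.93 in PHEN. The treated arrays overlapped with their vehicle arrays for both genes, and AARS2 differed by -0.03, -0.05 and 0.12. CARS2 read 6.66, 6.71 and 6.77 in DMSO and 6.64, 6.65 and 6.70 in NP, against 6.90, 6.99 and 7.20 in water, 6.92, 6.95 and 7.12 in MET and 7.02, 7.06 and 7.02 in PHEN. It spread little, with differences of -0.05, -0.03 and 0.01.

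YARS2 read 2.72, 2.67 and 2.64 in DMSO and 2.60, 2.55 and 2.55 in NP, against 2.37, 2.65 and 2.57 in water, 2.34, 2.67 and 2.65 in MET and 2.51, 2.52 and 2.53 in PHEN. All its NP arrays lay below the DMSO arrays, with a difference of -0.11, an unadjusted p of 0.326 and an adjusted p of 1.00 in limma, and it differed by 0.03 and 0.00 under MET and PHEN. WARS2 read 1.63, 1.69 and 1.80 in DMSO and 1.60, 1.61 and 1.96 in NP, against 1.5, 1.82 and 1.86 in water, 1.60, 1.81 and 1.65 in MET and 1.92, 1.78 and 1.56 in PHEN, with overlap throughout and differences of 0.02, -0.04 and 0.02.

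EPRS1 has separate counterparts in the mitochondrion for its 2 amino acids. EARS2, for glutamate, read 1.37, 1.25 and 1.41 in DMSO and 1.23, 1.26 and 1.40 in NP, against 0.77, 1.26 and 1.05 in water, 1.03, 1.08 and 0.94 in MET and 1.11, 1.19 and 1.00 in PHEN, with differences of -0.05, -0.01 and 0.07. PARS2, for proline, read 0.18, 0.00 and 0.33 in DMSO and 0.23, 0.20 and 0.42 in NP, against 0.46, 0.46 and 0.27 in water, 0.51, 0.41 and 0.39 in MET and 0.56, 0.57 and 0.45 in PHEN. It was higher by 0.12, 0.04 and 0.13, with overlapping arrays in each comparison. MARS2, for methionine, read -2.15, -2.26 and -2.94 in DMSO and -2.37, -2.22 and -3.00 in NP, against -2.88, -2.42 and -2.84 in water, -2.72, -2.33 and -2.45 in MET and -2.65, -2.26 and -2.45 in PHEN. Its log2 fold change of -0.08, 0.21 and 0.26 was the largest of the mitochondrial set under both biguanides.

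The other 8 mitochondrial enzymes (FARS2, HARS2, IARS2, LARS2, NARS2, RARS2, TARS2 and VARS2) differed from their vehicle by between -0.12, for RARS2 under MET, and 0.18, for FARS2 under MET. For NARS2 under NP the fit used 2 NP arrays, because the spot on array 2 was called an outlier. Its fitted log2 fold change of 0.08 goes against both measured pairs, which differed by -0.05 and -0.08, and was -0.07 with the replicate block within each set of slides, so its place among the 6 mitochondrial enzymes above 0 rests on the block. The 95% intervals do not exclude moderate changes in single mitochondrial genes. Their highest upper limits were 0.50 under NP (NARS2), 0.65 under MET (MARS2) and 0.70 under PHEN (MARS2), and their lowest lower limits were -0.52 (MARS2), -0.48 (IARS2) and -0.47 (IARS2).

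The enzymes were then set side by side by amino acid, in 16 matches of a cytosolic with a mitochondrial enzyme, EPRS1 being matched with both EARS2 and PARS2. The cytosolic enzyme had the higher log2 fold change in 13 of 16 matches under NP, 12 under MET and 12 under PHEN, and in all 3 pairs of arrays in 11, 9 and 6. The median of the cytosolic minus the mitochondrial log2 fold change was 0.28, 0.14 and 0.16. By pair of arrays, the median over the 18 cytosolic enzymes was 0.13, 0.39 and 0.22 under NP, the second pair holding the array marked by the software, 0.16, 0.12 and 0.16 under MET, and 0.30, 0.15 and 0.12 under PHEN. The median over the mitochondrial enzymes ranged between -0.06 and 0.17 over the 9 pairs, the top value being that of the first PHEN pair. The cytosolic median was above the mitochondrial median of the same pair in 9 of 9. These are descriptions of chosen genes on shared arrays, and no test was made between the sets.

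**Figure D3:**
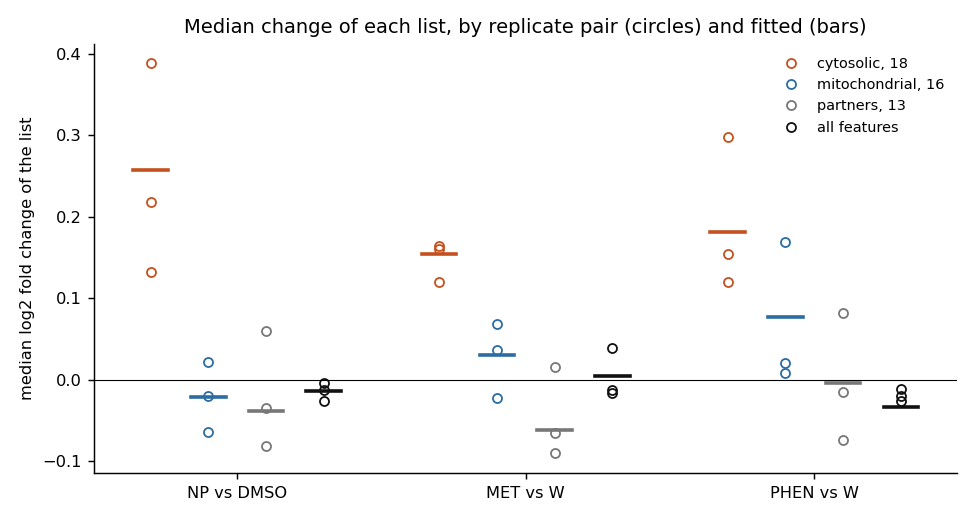
Median log2 fold change (vertical axis) of the 18 cytosolic enzymes, the 16 mitochondrial enzymes, 13 partner genes of tRNA charging and all 26827 features, in NP vs DMSO, MET vs W and PHEN vs W. Circles are the 3 pairs of arrays and bars the fitted values. The cytosolic median lies between 0.12 and 0.39 in every pair.

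Because ATF4 binds with C/EBP proteins to a composite element, the promoters of the list were searched for its core letters, TGATG followed by any base and then AA, on either strand, in the 250 bases before and 50 bases after each start that RefSeq lists (GRCh38.p14). Of 35116 promoters of all genes, 3.62% hold these letters, and of the 12783 tested genes with a promoter in the table, 3.07% do. Promoters were listed for 16 of the 19 cytosolic genes, and 7 of them hold a match, while 1 of 14 mitochondrial and 0 of 12 partner genes do. No other motif was searched. The search fixed all but 1 of the matched letters, so the likeness of the matches was set in advance. They are shown within 30 bases, 5′ to 3′ on the strand of the gene, with the matched letters in capitals. This lets the free base and the bases around each match be read. The match of ASNS, a gene with a known element of this kind, is shown beside those of the list.
AARS1 (chr16:70289675-70289704, strand -): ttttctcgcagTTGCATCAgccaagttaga
CARS1 (chr11:3057407-3057436, strand -): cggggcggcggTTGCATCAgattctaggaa
GARS1 (chr7:30594834-30594863, strand +): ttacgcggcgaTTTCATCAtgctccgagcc
IARS1 (chr9:92293692-92293721, strand -): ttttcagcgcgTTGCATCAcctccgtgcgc
MARS1 (chr12:57488053-57488082, strand +): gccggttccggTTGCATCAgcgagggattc
NARS1 (chr18:57621804-57621833, strand -): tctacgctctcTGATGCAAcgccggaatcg
TARS1 (chr5:33440956-33440985, strand +): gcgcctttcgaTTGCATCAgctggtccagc
YARS2 (chr12:32756076-32756105, strand -): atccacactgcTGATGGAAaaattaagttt
ASNS (chr7:97872458-97872487, strand -): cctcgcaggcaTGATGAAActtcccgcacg
Of the 7 cytosolic matches, all but GARS1 carry TTGCATCA or its reverse complement TGATGCAA. With the first transcribed base as 1 and the base before it as -1, the first matched base lies at -187 in AARS1, at -33 from the second start listed for GARS1, at -13 in IARS1, -4 in MARS1 and -2 in CARS1, and at 3 and 15 in TARS1 and NARS1. AARS1, CARS1, GARS1 and TARS1 are among the 8 enzymes higher at an unadjusted p of at most 0.05 under NP. SARS1, WARS1 and EPRS1 are as well, and hold no match in this window, while YARS1 had no promoter in the table. The median log2 fold change of the 7 genes with a match was 0.37, 0.16 and 0.27 under NP, MET and PHEN. That of the 8 measured genes without one was 0.02, 0.14 and 0.08, so the medians lay apart under NP and close together under MET. Single genes of both groups overlapped under every compound. YARS2, the mitochondrial gene with a match, differed by -0.11, 0.03 and 0.00. A match is a description of letters and does not show binding.

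**Figure D4:**
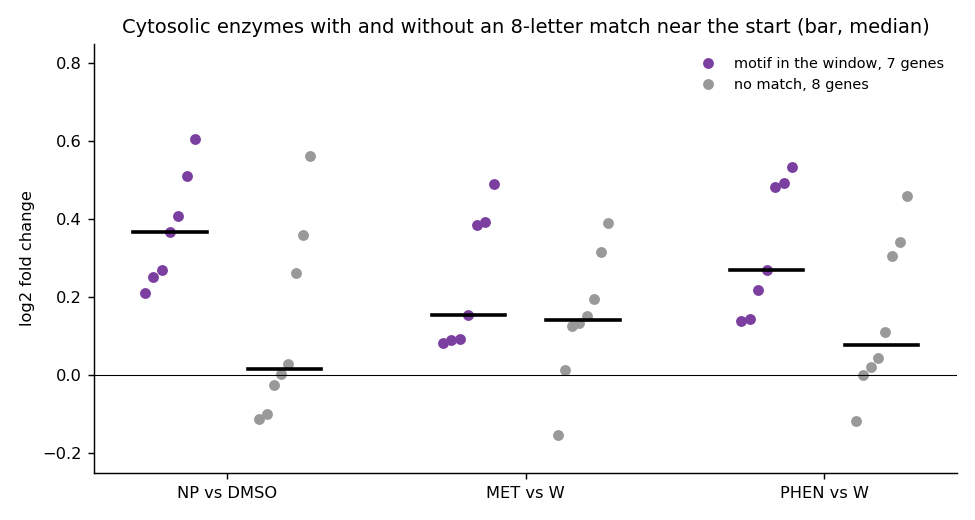
Log2 fold change (vertical axis) of the 15 measured cytosolic genes with a promoter in the table, split by whether the window from 250 bases before to 50 after the start holds TGATG, any base and AA on either strand (7 genes) or not (8 genes), in NP vs DMSO, MET vs W and PHEN vs W. Points are genes and bars medians, which were 0.37 and 0.02 under NP, 0.16 and 0.14 under MET, and 0.27 and 0.08 under PHEN.

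Whether NP and the biguanides moved the same enzymes was described across the list, since NP vs DMSO shares no array with MET vs W or PHEN vs W. Over the 34 enzymes, the log2 fold changes under NP and MET had Pearson's r = 0.69 and Spearman's rho = 0.51, and those under NP and PHEN r = 0.85 and rho = 0.73. Over all 26827 features r was 0.07 and 0.03. The direction was the same for 24 of 34 enzymes with MET and 23 of 34 with PHEN, against 49.7% and 53.3% of all features. Within the cytosolic set r was 0.68 and 0.87, and within the mitochondrial set -0.12 and 0.24. These values are across genes, which are not independent replicates and were measured on the same arrays.

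**Figure D5:**
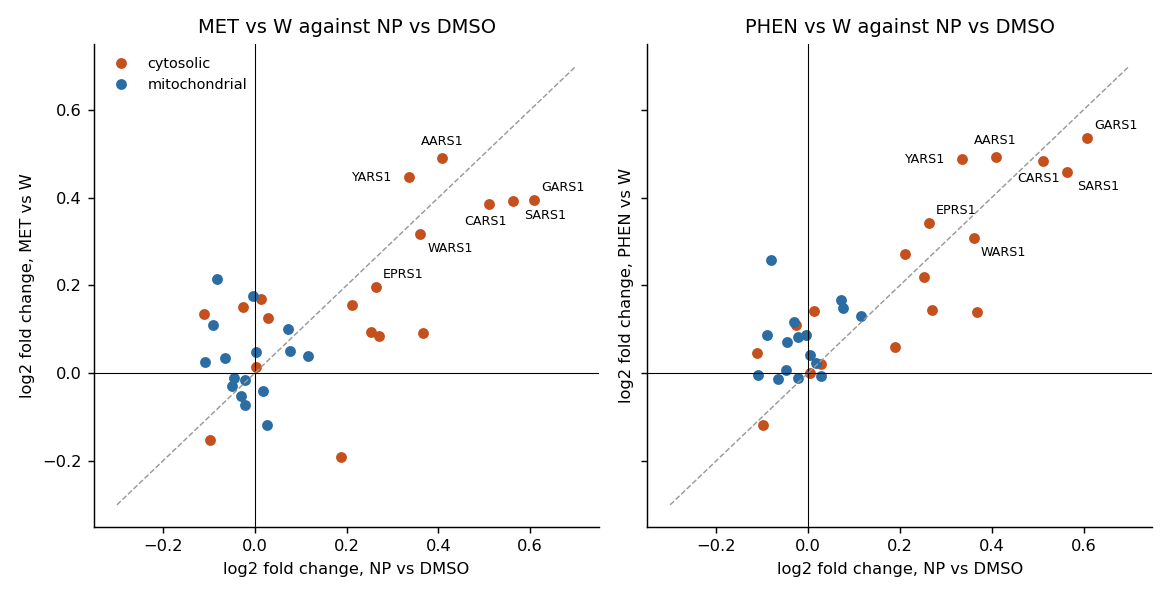
Log2 fold change of the 34 synthetase mRNAs under NP vs DMSO (horizontal axis) against MET vs W (left) and PHEN vs W (right, vertical axes). Points are genes, cytosolic or mitochondrial by colour, the dashed line marks equal values, and the 7 genes with the largest mean change are named. The named genes lie in the upper right of both panels and the mitochondrial genes around 0.

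The difference between the NP effect and each biguanide effect was tested as a contrast of contrasts. None of the 34 enzymes was a DEG for NP minus MET or for NP minus PHEN, where 0% and 0% of features were. None had an unadjusted p at or below 0.05 either, against 2.79% and 2.43% of features. The largest positive differences were those of LARS1 against MET, at 0.38 (95% interval -0.10 to 0.86), and of TARS1 against PHEN, at 0.23 (95% interval -0.22 to 0.67). The largest negative differences were those of MARS2, at -0.30 (95% interval -0.92 to 0.33) for NP minus MET and -0.34 (95% interval -0.96 to 0.28) for NP minus PHEN. For GARS1 the differences were 0.21 (95% interval -0.23 to 0.65) and 0.07 (95% interval -0.37 to 0.51), and for SARS1 0.17 (95% interval -0.12 to 0.46) and 0.10 (95% interval -0.18 to 0.39). The intervals are wide, and differences of up to 0.86 for a cytosolic enzyme lie within them.

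The genes that work beside the synthetases showed little of this. Of 14 partners listed, 13 were measured, namely the complex scaffolds AIMP1, AIMP2 and EEF1E1, the mitochondrial amidotransferase subunits GATB, GATC and QRSL1, the formyltransferase MTFMT, the selenocysteine enzymes PSTK and SEPSECS, the editing enzymes DTD1 and DTD2, the tRNA exporter XPOT and the CCA-adding enzyme TRNT1. AARSD1 had no probe matched to it. XPOT was higher under NP, with 2.69, 2.78 and 2.92 in DMSO and 3.00, 3.37 and 3.15 in NP, a log2 fold change of 0.38 ± 0.14 (SE, n = 3) and an unadjusted p of 0.0207. Its arrays did not overlap there, while under MET and PHEN it differed by 0.11 and 0.24 with overlap. No other partner met an unadjusted p of 0.05 in any of the 3 comparisons in either direction. The median of the 13 was -0.04, -0.06 and 0.00, and their log2 fold changes ranged from -0.18 to 0.38.

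ATF4 and a pair of its known targets served as reference for the size of these changes. The changes of ASNS start from unlike levels, since its mean was 5.85 in DMSO and 4.28 in water. Its mean in PHEN, 5.78, was below that in DMSO. The means in DMSO and water were 8.32 and 8.06 for ATF4, and 5.81 and 5.67 for TRIB3. ATF4 mRNA was higher by 0.60 ± 0.17, 0.52 ± 0.17 and 0.57 ± 0.17 (SE, n = 3), none of them a DEG. ASNS, asparagine synthetase, which makes the amino acid that NARS1 attaches, rose by 1.5 ± 0.16 under PHEN (adjusted p = 0.0406, limma) and was higher by 1.09 ± 0.16 and 1.11 ± 0.16 (SE, n = 3) under NP and MET. TRIB3, a pseudokinase induced by ATF4, rose by 1.01 ± 0.13 under NP (adjusted p = 0.0459, limma) and was higher by 0.54 ± 0.13 and 0.71 ± 0.13 (SE, n = 3) under MET and PHEN. Without NP array 2 alone, the adjusted p was 0.206 for TRIB3 and 0.0876 for ASNS. Neither call held when any 1 replicate number was left out, with adjusted p between 0.297 and 1.00 for TRIB3 and between 0.133 and 1.00 for ASNS. Under NP, the value of GARS1, the largest of the synthetases, was 0.61 beside 1.01 for TRIB3 and 1.09 for ASNS.

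The levels from which the compounds were measured also differed between the vehicles. In DMSO vs W, 10.6% of features were DEGs, and so were 2 cytosolic enzymes and no mitochondrial one. EPRS1 was higher in DMSO by 0.73 ± 0.11 (SE, n = 3) (adjusted p = 0.00479, limma), with every DMSO array above every water array. FARSA was lower, at -0.62 ± 0.09 (SE, n = 3) (adjusted p = 0.00491). The share of features was 1.69% with slide as a random block, 0% without the arrays numbered 1, 0% without those numbered 2 and 18.8% without those numbered 3, and it was 0% when only the groups compared were fitted. Neither enzyme was a DEG without the arrays numbered 1 or those numbered 2. Below the 1.5-fold limit, GARS1 was higher in DMSO by 0.50 ± 0.14 and SARS1 by 0.35 ± 0.09 (SE, n = 3) (adjusted p = 0.0363 and 0.0300, limma). LARS1 and the mitochondrial CARS2 were lower, at -0.57 ± 0.15 and -0.32 ± 0.09 (SE, n = 3) (adjusted p = 0.0318 and 0.0356, limma). With normexp background correction GARS1 and SARS1 were at 0.45 and 0.09 (adjusted p = 0.0754 and 0.574), and neither LARS1 nor CARS2 had an adjusted p of at most 0.05. Over all the alternatives the adjusted p ranged from 0.00474 to 0.463 for GARS1 and from 0.00661 to 0.574 for SARS1. The vehicles were hybridised on different slides, and vehicle and slide cannot be told apart.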

How the data were processed

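Total RNA was labelled with Cy3 and hybridised to single-colour Agilent arrays, per the labels. The authors deposited spot intensity from Agilent Feature Extraction (10.7.3.1 in the file headers, 9.1 in the submitters' processing notes), already background-subtracted within each array and not normalized between arrays, and a table of log2 values that the authors normalized at the 75th percentile. The header build is hg19, and no gene coordinates were taken from the arrays.

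Control spots were removed, outlier spots were set to missing and spots of a probe were averaged. The log2 intensity minus the 75th percentile of each array was used. Probes were kept that the software called well above background on every array of some group (32915 of 58201), a gene was given its brightest probe, and features with at least 8 values were tested. Symbols came from RefSeq accessions, of which 31100 of 33080 matched. With limma 3.58.1 (R 4.3.3, statmod 1.5.0), the 5 groups and the replicate number as a block were fitted over 15 arrays by empirical Bayes, two-sided, with Benjamini-Hochberg adjustment over 26827 features. Tables and figures were made with Python 3.11.15, pandas 2.3.3, numpy 2.4.6 and matplotlib 3.10.9. The fit was also run on simulated arrays with known changes. These had independent noise and the same replicate block, so they do not test the fit where arrays of a slide vary together.

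The genes, lists and tests were chosen with earlier results of these data known. All 35 enzymes are named. Values on every array are given for the 8 with the largest mean absolute log2 fold change and for their mitochondrial counterparts, and partner genes were to be given in values only at an unadjusted p of at most 0.05. Within each set of slides, all 12 same-numbered pairs of arrays deviated together (r between 0.22 and 0.86). Between the sets they did not (18 pairs, median r of -0.09), so a block within each set was also fitted. Pairs of unlike number within a set had r from -0.78 to 0.29 (24 pairs, median -0.22). In each set, arrays 1 and 2 shared a slide and arrays 3 were on another. On the slide of DMSO and NP arrays 1 and 2, r was 0.31 and 0.33 for the same number. It was 0.24 and 0.29 for unlike numbers, so number and slide could hardly be told apart there. The alternatives are listed at the end. 3 arrays per group limit the precision. Protein sequences were not used here.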

Additional observations from a re-analysis of the deposited data

Results flagged for a closer look

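Genes whose 3 pairs of arrays all differed one way under 1 compound and all the opposite way under another are given here as values. FARSA differed by -0.11 under NP and by 0.13 under MET and 0.046 under PHEN, and HARS1 by -0.025 under NP and by 0.15 and 0.11 under MET and PHEN. LARS1 differed by 0.19 under NP and by -0.19 under MET. In limma's test of the difference, the adjusted p was 1.00 for each of these, and the smallest unadjusted p was 0.0933, for FARSA with NP minus MET. TARS2 differed by -0.074 under MET and by 0.081 under PHEN, 2 comparisons that share the water arrays, and that difference was not tested.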

How the results depend on the processing

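Under 18 alternatives, 2 of them (without NP array 2) chosen after seeing the data, the median of the cytosolic enzymes moved by less than 1 SD of its medians by pair, with values of 0.20 to 0.28 under NP, 0.13 to 0.17 under MET and 0.14 to 0.25 under PHEN, and that of the mitochondrial enzymes was -0.052 to 0.025, -0.01 to 0.07 and 0.01 to 0.11, where 0.025, without NP array 2, had moved by more than 1 SD. The 8 enzymes with the largest change kept a positive sign in all 456 values, which include those of the reported fit. They were picked for the size of their change in the same data, so a kept sign is no separate support. ASNS and TRIB3 lost their calls under several alternatives. In NP vs DMSO, normexp made 1 enzyme (SARS1) a DEG, against 0.0969% of features. The count of cytosolic enzymes higher at an unadjusted p of at most 0.05, reported as 8, was 5 without the filter on dim probes, against 1.53% of features. It was 4 by the methods' paired t-test, against 2.9% (uncorrected, where 0 features passed after adjustment). That test also called 1 enzyme lower under NP (YARS2), where 1250 of 26827 features were, and 2 lower under MET (LARS1 and TARS2), where 1546 features were. It called 2 mitochondrial enzymes higher under PHEN (HARS2 and PARS2), against 2.62% of features. A fit of only the groups compared called 1 lower under MET (LARS1), where 1691 features were. Leaving out each replicate number gave 1 to 7 cytosolic enzymes under NP, against 1.92% to 3.2% of features, and 1 to 3 under MET, against 0.507% to 2.33%. Leaving out NP array 2 alone gave 2 under NP, against 2.62%. Without the replicate block, the cytosolic counts were 8, 5 and 6 under NP, MET and PHEN, against 2.04%, 0.854% and 0.57% of features, and no DEG call of an enzyme changed. With the replicate block within each set of slides they were 10, 7 and 9, against 5.7%, 4.72% and 2.99%. In that fit 1 mitochondrial enzyme under MET (MARS2) and 2 under PHEN (HARS2 and MARS2) met the limit. They also did without NP array 2, against 4.59% and 2.82% of features. With a term for slide beside the replicate block, 1 met it under PHEN (HARS2), against 2.32%. In DMSO vs W, where 2 enzymes were DEGs, quantile normalization left 1 (EPRS1), against 8.99% of features. The fit of only the groups compared left 0, against 0%, and the paired t-test left 0, against 0.0112%. Leaving out replicate 1 or 2 also left 0 (0 to 2), against 0%. The causes were not tested. The unadjusted counts depend on 3 arrays per group, and for dim probes on the signal over background.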
